A study of Mus musculus with 9 samples.

Results

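The DNA replication genes described here are 43 genes of the replication fork and of entry into S phase, taken by name from the gene column of a table of read counts that holds 54456 gene names. All 43 were found, and all 43 were among the 18051 genes with enough counts to be tested. They were read in 3 kinds of aggregate made from WT mouse mammary epithelial cells that had been purified by flow cytometry. Mixed aggregates held basal and luminal cells combined as a 50% mixture, luminal aggregates held luminal cells alone, and basal aggregates held basal cells alone, with 3 libraries of each kind. Luminal cells line the mammary duct and include its milk-producing lineage, and basal cells form the contractile outer layer. Every aggregate lay in 80% Matrigel near beads soaked in FGF10, a growth factor that draws mammary epithelium to migrate, and RNA was taken after 56 hours by the treatment label (the titles say 55). The study set the aggregates side by side to ask what basal and luminal cells each do in collective migration. All groups carried the beads, so no value here compares FGF10 with its absence. The labels give no strain, age or number of animals, and nothing says that the replicates came from separate animals or sorts. The p-values therefore measure the spread between these libraries, which may be technical.

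A cell copies its genome once per division. In G1 the origin recognition complex, Cdc6 and Cdt1 load the ring-shaped Mcm2-7 helicase onto DNA, and in S phase Cdc45 and the GINS complex switch the ring on. Polymerases then copy both strands behind the fork, held to DNA by the sliding clamp PCNA, while ribonucleotide reductase supplies deoxynucleotides and chaperones rebuild chromatin. Many of these genes are transcribed by E2F factors, which the retinoblastoma protein holds in check until cyclin E and its kinase release them. In the mammary gland, both epithelial layers hold cells that divide during ductal growth and pregnancy.

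RefSeq promoters, each reaching from 250 bases before to 50 bases after an annotated start in GRCm38.p6, were matched by symbol to 35 of the 43 genes. An E2F consensus of 8 bases (TTTCCCGC, TTTCGCGC, TTTGCCGC or TTTGGCGC, on either strand) stood in 13 of these 35 promoters, which is 37.1%. Among the promoters of all tested genes 3.93% held it (457 of 11632), and among all 27025 RefSeq promoters 2.32% did. The 13 genes were Orc1, Cdc6, Cdt1, Mcm3, Mcm5, Mcm6, Mcm7, Gins3, Rfc3, Pola1, Pold1, Pole2 and Dtl. Promoters of 3 subunits of the helicase ring are printed, as those with the most matches (ties taken by expression level), 2 in Mcm3 and Mcm5 and 3 in Mcm6. Each of the 3 genes was called in all 3 comparisons below, although the mixed against basal call of Mcm6 ended in 13 of 21 alternative fits. Each is given 5′ to 3′ on the strand of its gene, with E2F matches in capitals: Mcm3 lies at chr1:20820263-20820562 on the minus strand, Mcm5 at chr8:75109259-75109558 on the plus strand and Mcm6 at chr1:128359656-128359955 on the minus strand.
Mcm3: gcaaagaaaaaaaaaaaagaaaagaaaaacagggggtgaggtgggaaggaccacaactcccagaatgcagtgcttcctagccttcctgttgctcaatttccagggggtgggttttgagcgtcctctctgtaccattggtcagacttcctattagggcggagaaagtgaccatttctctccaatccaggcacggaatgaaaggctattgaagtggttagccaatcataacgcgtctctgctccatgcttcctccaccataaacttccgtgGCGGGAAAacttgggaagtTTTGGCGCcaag
Mcm5: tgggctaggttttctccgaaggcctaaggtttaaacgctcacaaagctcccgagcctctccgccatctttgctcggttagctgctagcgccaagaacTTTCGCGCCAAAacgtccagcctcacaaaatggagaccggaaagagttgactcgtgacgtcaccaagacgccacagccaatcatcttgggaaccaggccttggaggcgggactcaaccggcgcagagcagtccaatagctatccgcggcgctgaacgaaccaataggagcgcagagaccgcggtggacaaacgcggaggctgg
Mcm6: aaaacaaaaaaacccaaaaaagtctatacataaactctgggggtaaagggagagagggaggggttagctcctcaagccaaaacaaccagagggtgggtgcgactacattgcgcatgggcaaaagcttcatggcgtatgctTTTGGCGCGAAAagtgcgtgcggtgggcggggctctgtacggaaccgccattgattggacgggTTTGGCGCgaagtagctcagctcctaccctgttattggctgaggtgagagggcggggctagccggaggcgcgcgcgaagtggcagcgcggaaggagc
The Mcm3 promoter holds a match on each strand just after the start. In the Mcm5 promoter, matches on opposite strands overlap, and the Mcm6 promoter holds such an overlapping pair and a further match nearer to its start. A CCAAT box stood in 57.1% of the replication promoters and in 38.7% of those of all tested genes, and a GC box (GGGCGG) in 74.3% and 62.1%. The motif TTTGAA, known from late cell cycle promoters, stood in 11.4% and 12.5%, and TATAAA in 5.71% and 7.75%. Motifs were searched on both strands, a match is a string of letters and not a measured site, and no binding was measured here.

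Libraries held between 15585324 and 19164405 counts, and 3 counts, the least taken as detected, come to 0.152 to 0.187 CPM (counts scaled to library size and TMM factor). Basal 1 and 3 correlated across all genes at r = 0.986, while basal 2 correlated with them at 0.927 and 0.936. Column names of the table fall into 3 code series, and the first holds mixed 1, 2 and 3 with basal 2, the second basal 1 and 3 with luminal 1, and the third luminal 2 and 3. No series holds both mixed and luminal libraries, and basal 2 is the one basal library that shares a series with mixed ones. Luminal 1 is the one luminal library that shares a series with basal ones. A fit with the series as a term thus compares luminal with basal aggregates through luminal 1 alone. It compares mixed with basal aggregates through basal 2 alone. What a series stands for is not stated. Summed CPM of 6 basal markers (Krt5, Krt14, Trp63, Acta2, Myh11 and Oxtr) ran from 5954 to 7059 in mixed, 1399 to 2748 in luminal and 9043 to 10310 in basal aggregates. Those of 7 luminal markers (Krt8, Krt18, Krt19, Epcam, Elf5, Kit and Esr1) ran from 9017 to 10502, 7064 to 9740 and 3436 to 3906 in the same order. Of the basal markers, Krt14 stayed at 1285 to 2554 CPM in luminal aggregates, while Krt5 was at most 23.2 CPM there. Of 7 immune markers the sum was 44.9 to 65.2 CPM in mixed and 22.3 to 53.0 CPM in luminal aggregates, and 4.77, 49.4 and 4.43 CPM in basal 1, 2 and 3. Cd74 and Lyz2 carried most of it in basal 2, Cd68 carried most in luminal libraries, and Ptprc was at 0 counts in luminal 1 and 2 and basal 1 and 3. Sums of 6 fibroblast markers ran from 15.9 to 38 CPM in mixed, 6.53 to 10.4 in luminal and 21.5 to 29.1 in basal aggregates, with Col1a2 at 0 counts in every luminal library. Endothelial (4 genes) and adipocyte (3 genes) sums were at most 5.77 and 0.687 CPM. The part of other cell types or of a series in the differences below was not tested beyond the values given.

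Luminal aggregates had far less of the replication transcripts than basal ones, and mixed aggregates lay nearer to basal. The 43 genes summed to 2634, 2321 and 2759 CPM in mixed, 715, 676 and 690 CPM in luminal and 3206, 3685 and 3393 CPM in basal aggregates. The groups do not overlap, and the mean sum was 75.0% of basal in mixed and 20.2% of basal in luminal aggregates, a 4.94-fold gap between basal and luminal. By edgeR's quasi-likelihood test with Benjamini-Hochberg adjustment over all 18051 genes, 41 of 43 fell in luminal against basal aggregates and none rose, where 14.4% of tested genes fell and 12.8% rose. Each of the 41 differed by at least 2-fold, and the 2 not called were Gins4 and Fen1. The median log2 difference of the 43 was -2.32, from -4.59 for Uhrf1 to -0.53 for Gins4, beside a median of -0.02 over all tested genes. In all 43 each luminal library lay below every basal one, as did 23.4% of tested genes. In mixed against luminal aggregates 40 of 43 rose and none fell (15.2% of tested genes rose and 14.2% fell), with a median of 1.89, and in 40 every mixed library lay above every luminal one (25% of tested genes). Not called there were Pold1, Pole2 and Fen1. In mixed against basal aggregates 8 fell and none rose (7.33% of tested genes fell and 6.39% rose), with a median of -0.42 beside -0.07 over all tested genes, and in 17 every mixed library lay below every basal one (18.7% of tested genes). The difference was negative in 39 of the 43, and positive but not called in Pcna, Gins4, Prim1 and Ccne2. Without basal 2, 10 of the 39 turned positive. The 3 comparisons share libraries, so they are not separate pieces of evidence. In bulk RNA, fewer dividing cells and less transcript per dividing cell cannot be told apart.

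**Figure D1:**
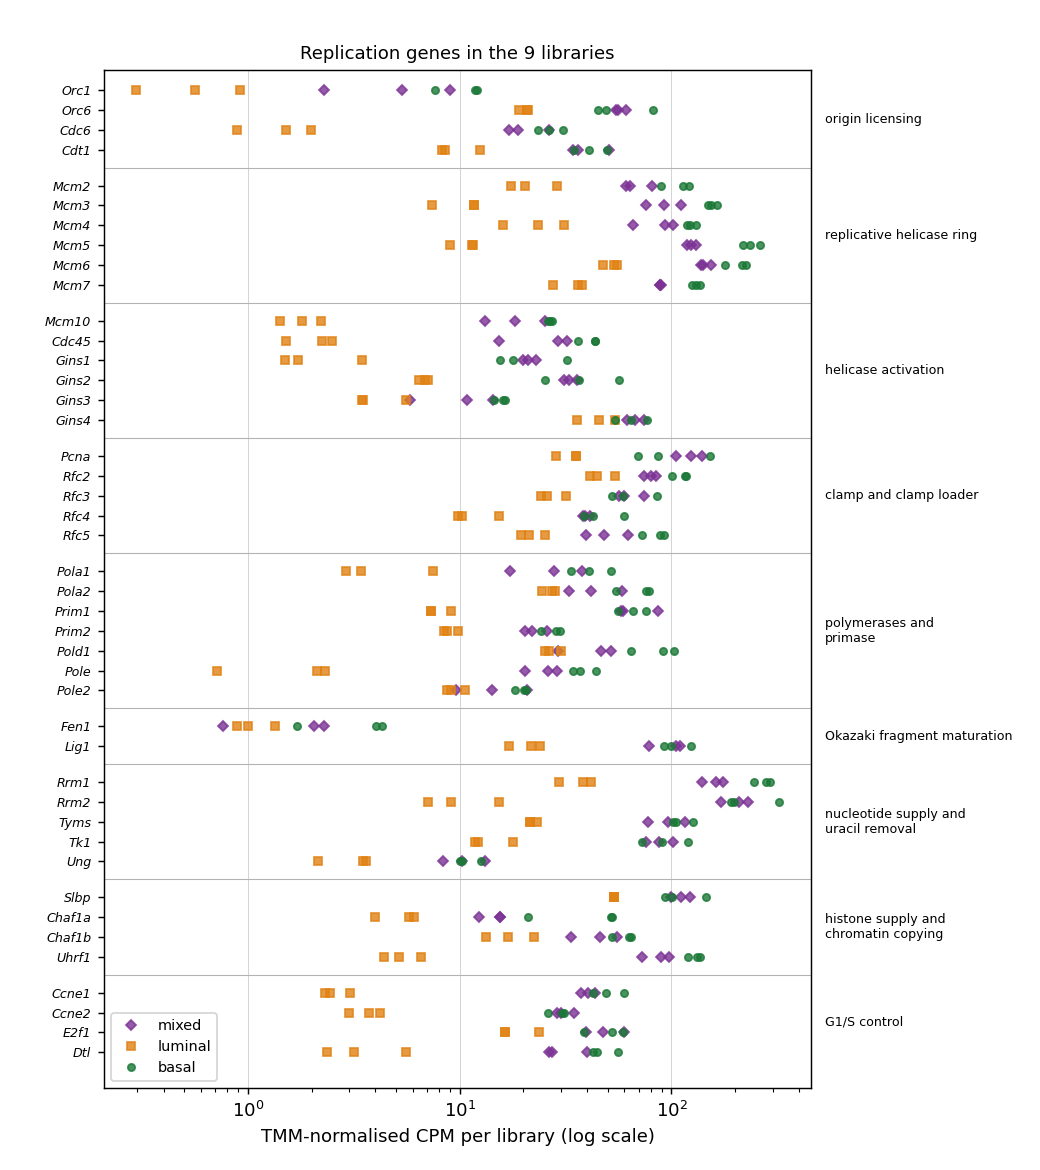
TMM-normalised CPM of each of the 43 replication genes (rows, grouped by role) in each of the 9 libraries, on a log axis; diamonds are mixed, squares luminal and circles basal libraries. Luminal squares lie left of every basal circle in all 43 genes, while mixed diamonds overlap basal circles in many of them.

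In what follows, values of a group are given for replicates 1, 2 and 3 in that order, as TMM-normalised CPM, and a log2 difference carries its standard error. The genes of origin licensing come first. These load the helicase, and all 4 fell in luminal against basal aggregates (median -3.11) and rose in mixed against luminal ones. Cdc6, the ATPase that joins the origin complex to recruit the ring, had 17.2, 18.8 and 26.5 CPM in mixed, 1.51, 0.89 and 1.99 CPM in luminal and 30.6, 26.3 and 23.3 CPM in basal aggregates. Every luminal library lay below 2 CPM and every other library above 17, and mixed 3 reached the basal range. Cdc6 fell in luminal against basal aggregates (-4.19 ± 0.34, adjusted p = 4.4e-06) and rose in mixed against luminal ones (3.82 ± 0.34, adjusted p = 1.8e-05). Orc6, the smallest subunit of the origin complex, had 56, 54.5 and 61.1 CPM in mixed, 19.1, 20.8 and 21 CPM in luminal and 45.2, 81.5 and 49.2 CPM in basal aggregates. Its 3 luminal libraries were close together, and basal 2 was the highest of the 9. Its log2 difference was -1.53 ± 0.23, adjusted p = 0.00037 in luminal against basal and -0.04 ± 0.22, adjusted p = 0.93 in mixed against basal aggregates. Orc1, an ATPase of the origin complex, had the lowest level per length of the 4 (3.03 RPKM, CPM per kilobase of exon, in basal aggregates). Its values were 5.32, 2.28 and 8.99 CPM in mixed, 0.917, 0.297 and 0.56 CPM in luminal and 11.8, 7.66 and 12.1 CPM in basal aggregates. Cdt1, which escorts the ring to the origin, had a luminal against basal difference of -2.10 and -0.04 in mixed against basal aggregates, the second not called. Orc2, Orc3, Orc4 and Orc5, the other measured subunits of the origin complex, were not called in luminal against basal aggregates and lay between -0.52 and 0.16.

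All 6 subunits of the Mcm2-7 ring, the motor that unwinds DNA at the fork, fell in luminal against basal aggregates (median -2.34), and 4 of them also fell in mixed against basal ones. Of 21 alternatives, 13 ended the mixed against basal call of Mcm6, 10 that of Mcm7, 6 that of Mcm3 and 1 that of Mcm5. Among the 9 fits without 1 library, 8 ended the call of Mcm6 and 6 that of Mcm7. Mcm5 (chromosome 8, 75836197 to 75855067 in mm39) had 131, 118 and 124 CPM in mixed, 11.4, 9.02 and 11.6 CPM in luminal and 217, 262 and 235 CPM in basal aggregates. The 3 kinds of aggregate did not overlap, and within each kind the libraries were close. Mcm5 fell in luminal against basal aggregates (-4.48 ± 0.18, adjusted p = 7.8e-08), fell in mixed against basal ones (-0.94 ± 0.16, adjusted p = 0.0032) and rose in mixed against luminal ones (3.54 ± 0.18, adjusted p = 6.2e-07). Mcm3 had 75.7, 92.4 and 111 CPM in mixed, 11.7, 7.42 and 11.7 CPM in luminal and 154, 163 and 149 CPM in basal aggregates. It too separated the 3 kinds, with a difference of -3.92 ± 0.23, adjusted p = 3.9e-07 in luminal against basal and -0.74 ± 0.20, adjusted p = 0.033 in mixed against basal aggregates. For Mcm6 the values were 140.5, 137 and 153 CPM in mixed, 53.4, 47.7 and 55.5 CPM in luminal and 215, 179 and 225 CPM in basal aggregates. Again no kinds overlapped, and Mcm6 kept the highest level per length of the ring genes in luminal aggregates, 11.2 RPKM against 44.2 RPKM in basal ones. Its differences were -1.98 ± 0.16, adjusted p = 4.1e-06 in luminal against basal and -0.52 ± 0.15, adjusted p = 0.045 in mixed against basal aggregates. Mcm7 had 88.4, 88.7 and 89.3 CPM in mixed, 36.2, 27.5 and 37.8 CPM in luminal and 124, 131 and 136 CPM in basal aggregates. The mixed libraries were almost equal and stood between the other kinds, with -1.95 ± 0.16, adjusted p = 5.7e-06 in luminal against basal and -0.56 ± 0.16, adjusted p = 0.039 in mixed against basal aggregates. Mcm2 and Mcm4 also had every mixed library below every basal one, but their mixed against basal differences of -0.65 and -0.51 were not called (adjusted p = 0.067 and 0.18). The ring genes summed to 605 ± 39.8 CPM in mixed, 153 ± 25.9 CPM in luminal and 962 ± 24.7 CPM in basal aggregates (SD, n = 3 each). That puts mixed at 62.9% of basal, the lowest such share of the 9 roles into which the 43 genes were sorted.

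Of the 6 genes that activate the ring, 5 fell in luminal against basal aggregates (median of the 6, -2.91), all 6 rose in mixed against luminal ones and none was called in mixed against basal ones. Of the 6 calls in mixed against luminal aggregates, the code series term kept 2 (Mcm10 and Cdc45). Cdc45, which joins the ring to form the working helicase, had 29.2, 15.4 and 32.2 CPM in mixed, 1.51, 2.49 and 2.24 CPM in luminal and 36.1, 43.5 and 43.8 CPM in basal aggregates. Luminal libraries were at 2.49 CPM or less, and mixed 2 was the lowest outside the luminal group. Its difference was -4.30 ± 0.34, adjusted p = 3.3e-06 in luminal against basal and -0.68 ± 0.28, adjusted p = 0.14 in mixed against basal aggregates. Mcm10, which helps to start unwinding, fell in luminal against basal aggregates as well (-3.87 ± 0.32, adjusted p = 4.5e-06). The 4 subunits of the GINS complex ranged widely. Gins1 and Gins2 fell in luminal against basal aggregates by 3.29 and 2.54 on the log2 scale, and Gins3 fell by 1.90. Gins4 (chromosome 8, 23716632 to 23727675 in mm39) had 74, 61.4 and 67.3 CPM in mixed, 45.7, 54 and 35.9 CPM in luminal and 54.2, 77 and 64.5 CPM in basal aggregates. Luminal 2 nearly reached basal 1, and the difference in luminal against basal aggregates, -0.53 ± 0.20, adjusted p = 0.069, did not pass the threshold of 0.05. In mixed against luminal aggregates Gins4 passed narrowly (0.58 ± 0.20, adjusted p = 0.046), and that call ended in 10 of 21 alternatives, among them 6 of the 9 fits without 1 library, while the call of Gins3 ended in 6. Gins4 was highest of all 43 genes per length in luminal aggregates, with 33.5 RPKM there, 50.1 RPKM in mixed and 48.4 RPKM in basal aggregates. Reads of Gins2 are uncertain because 67.3% of its exon bases lie under another gene, Gse1, and the counting did not use strand.

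All 5 genes of the sliding clamp and its loader fell in luminal against basal aggregates (median -1.63) and rose in mixed against luminal ones. With the code series as a term, 5 of 5 calls remained in luminal against basal and 0 of 5 in mixed against luminal aggregates (adjusted p from 0.17 for Rfc4 to 0.54 for Rfc3). Pcna (chromosome 2, 132091082 to 132095234 in mm39), the clamp itself, had 123, 105 and 140.0 CPM in mixed, 35.5, 35.4 and 28.4 CPM in luminal and 69.1, 152 and 86.2 CPM in basal aggregates. Basal 2 was above every mixed library, and basal 1 and 3 were below every one. Pcna fell in luminal against basal aggregates (-1.63 ± 0.27, adjusted p = 0.00081) and was not called in mixed against basal ones (0.26 ± 0.26, adjusted p = 0.54). With basal 2 left out the mixed against basal difference became 0.66 (adjusted p = 0.023), and with the code series as a term it became -0.31 (adjusted p = 0.56). The table also names the pseudogenes Pcna-ps1 and Pcna-ps2, whose reads could be shared with Pcna. Of the loader subunits, Rfc4 had 41.1, 39.1 and 38.2 CPM in mixed, 10.3, 15.3 and 9.77 CPM in luminal and 38.8, 59.8 and 42.6 CPM in basal aggregates. It fell most of the 4 in luminal against basal aggregates (-2.0 ± 0.24, adjusted p = 7.7e-05), and its mixed libraries sat at the level of basal 1 and 3. Rfc2 had 74.4, 84.3 and 80.0 CPM in mixed, 44.6, 54.2 and 41.3 CPM in luminal and 101, 116 and 118 CPM in basal aggregates, a difference of -1.25 ± 0.16, adjusted p = 0.00014 in luminal against basal aggregates. Every mixed library of Rfc2 was below every basal one, but -0.49 ± 0.16, adjusted p = 0.065 was not called. Rfc5 had 62, 39.6 and 47.9 CPM in mixed, 25.4, 21.3 and 19.5 CPM in luminal and 72.6, 92.6 and 88.4 CPM in basal aggregates. The 3 kinds were apart, and Rfc5 fell in luminal against basal (-1.94 ± 0.21, adjusted p = 3.4e-05) and in mixed against basal aggregates (-0.76 ± 0.20, adjusted p = 0.029). The mixed against basal call of Rfc5 ended in 6 of 21 alternatives, among them the fits without basal 3, mixed 2 or mixed 3. Rfc3 fell in luminal against basal aggregates (-1.27 ± 0.22, adjusted p = 0.0011). Between 10.7 and 15.1% of the exon bases of Rfc2, Rfc4 and Rfc5 lie under other genes. The same holds for 17.4% of those of Ccne2, 12.6% of Mcm7 and 10.8% of Orc1.

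The 7 genes of polymerases and primase all fell in luminal against basal aggregates (median -1.66, from -4.48 to -1.06). In mixed against luminal aggregates 5 of the 7 rose, and the code series term kept 2 of these 5 calls. There the call of Pola2 ended in 10 of 21 alternatives, among them 7 of the 9 fits without 1 library. Pole, the catalytic subunit of the leading-strand polymerase, had 26.2, 20.4 and 28.8 CPM in mixed, 2.32, 0.712 and 2.12 CPM in luminal and 36.9, 44.2 and 34.2 CPM in basal aggregates. It was nearly absent from luminal libraries, with the lowest level per length of the 43 genes there (0.154 RPKM), and its difference was -4.48 ± 0.38, adjusted p = 5.8e-06. Pole2, the second subunit of the same enzyme, had 14.2, 9.6 and 20.8 CPM in mixed, 8.69, 9.08 and 10.6 CPM in luminal and 18.3, 20.2 and 20.5 CPM in basal aggregates. Mixed libraries ran from the luminal to the basal range. Its difference in luminal against basal aggregates was the smallest of those called, -1.06 ± 0.29, adjusted p = 0.018, and it was lost with the code series as a term (adjusted p = 0.16) and without basal 3, luminal 1 or luminal 2. Pold1, the catalytic subunit of the lagging-strand polymerase, had 51.7, 46.6 and 29.2 CPM in mixed, 26.4, 25.3 and 30.1 CPM in luminal and 91.5, 64.6 and 103 CPM in basal aggregates. Mixed 3 lay within the luminal range, and every mixed library lay below basal 2, the lowest basal one. Pold1 fell in luminal against basal (-1.66 ± 0.24, adjusted p = 0.00036) and in mixed against basal aggregates (-1.02 ± 0.24, adjusted p = 0.017), and was not called in mixed against luminal ones (0.64 ± 0.24, adjusted p = 0.066). Its mixed against basal call ended in 4 of 21 alternatives, among them the fits without basal 1 or basal 3. Prim1, the catalytic subunit of the primase that lays down RNA primers, had 59.2, 57.5 and 86.8 CPM in mixed, 9.12, 7.36 and 7.34 CPM in luminal and 55.8, 75.6 and 65.9 CPM in basal aggregates. Mixed 3 was the highest of the 9 and every luminal library stayed under 10 CPM, with a luminal against basal difference of -3.05 ± 0.23, adjusted p = 2.3e-06 and a mixed against basal one of 0.04 ± 0.21, adjusted p = 0.91. Its partner Prim2 fell by 1.61 on the log2 scale in luminal against basal aggregates, and Pola1 and Pola2, which extend the primers, fell by 3.19 and 1.39.

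Okazaki fragments are finished by Fen1, the flap nuclease, and Lig1, the ligase that seals the nick. Lig1 had 109, 78.6 and 105 CPM in mixed, 21.8, 24 and 17.2 CPM in luminal and 92.7, 123 and 99.8 CPM in basal aggregates. Mixed and basal libraries overlapped, and luminal ones were far lower (97.7 ± 16.6 CPM in mixed, 21 ± 3.5 CPM in luminal and 105 ± 16.1 CPM in basal aggregates, SD, n = 3 each). Lig1 fell in luminal against basal aggregates (-2.32 ± 0.20, adjusted p = 7.6e-06) and rose in mixed against luminal ones (2.22 ± 0.20, adjusted p = 2.4e-05). Fen1 (chromosome 19, 10176496 to 10181533 in mm39) had 2.06, 2.28 and 0.762 CPM in mixed, 1.35, 0.89 and 0.996 CPM in luminal and 4.31, 1.71 and 4.02 CPM in basal aggregates. Its level per length was the lowest of the 43 genes in mixed and in basal aggregates, and 84.2% of its exon bases lie under Tmem258 and Gm10143. Reads over those bases could not be assigned by strand, so the count of Fen1 is uncertain, and no comparison called it (-1.63 ± 0.66, adjusted p = 0.091 in luminal against basal aggregates).

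Genes that supply nucleotides or remove uracil all fell in luminal against basal aggregates (5 of 5, median -2.75) and rose in mixed against luminal ones. Rrm2 (chromosome 12, 24758240 to 24764145 in mm39), the regulated subunit of ribonucleotide reductase, had 229, 172 and 207 CPM in mixed, 15.3, 7.12 and 9.09 CPM in luminal and 192, 322 and 198 CPM in basal aggregates. It had the highest level per length of the 43 genes in mixed (73.2 RPKM) and in basal aggregates (85.7 RPKM). Mixed libraries spanned the range of basal 1 and 3, basal 2 was well above, and luminal libraries were at 15.3 CPM or less, a luminal against basal difference of -4.49 ± 0.33, adjusted p = 2.0e-06. Rrm1, the large subunit of the same enzyme, had 163, 139.9 and 175 CPM in mixed, 38.2, 29.4 and 41.6 CPM in luminal and 291, 245 and 281 CPM in basal aggregates. Unlike Rrm2 it separated the 3 kinds, falling in luminal against basal (-2.90 ± 0.19, adjusted p = 8.2e-07) and in mixed against basal aggregates (-0.78 ± 0.18, adjusted p = 0.015). The mixed against basal call of Rrm1 ended in 5 of 21 alternatives, among them the fits without basal 1, basal 3 or mixed 2. Ung, which cuts uracil out of DNA, had 10.3, 8.37 and 13.1 CPM in mixed, 3.62, 2.14 and 3.49 CPM in luminal and 9.99, 12.6 and 10.2 CPM in basal aggregates. Mixed and basal libraries overlapped and luminal ones were all lower, a difference of -1.83 ± 0.34, adjusted p = 0.0018 in luminal against basal aggregates, lost with the code series as a term (adjusted p = 0.11). Tyms, which makes thymidylate, and Tk1, which salvages thymidine, fell by 2.34 and 2.75 on the log2 scale in luminal against basal aggregates. Reads of Tyms could be shared with a pseudogene that the table names Tyms-ps.

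Histone supply and the copying of chromatin are carried by Slbp, Chaf1a, Chaf1b and Uhrf1, all 4 of which fell in luminal against basal aggregates (median -2.38) and rose in mixed against luminal ones. Uhrf1 (chromosome 17, 56610321 to 56630486 in mm39), which brings the maintenance DNA methyltransferase to new strands, had 89.7, 72.7 and 97.1 CPM in mixed, 6.58, 4.39 and 5.17 CPM in luminal and 137, 120.2 and 132 CPM in basal aggregates. Its fall in luminal against basal aggregates was the largest of the 43 genes (-4.59 ± 0.21, adjusted p = 1.2e-07). Every mixed library of Uhrf1 lay below every basal one, and -0.58 ± 0.18, adjusted p = 0.053 in mixed against basal aggregates just missed the threshold. Slbp, which binds the stem-loop of histone messages, had 99.8, 111 and 122 CPM in mixed, 53.6, 53.5 and 53.7 CPM in luminal and 93.5, 146 and 101 CPM in basal aggregates. The luminal libraries were almost equal and all below every other library, a difference of -1.08 ± 0.19, adjusted p = 0.0011 in luminal against basal aggregates. Chaf1a, the large subunit of the chromatin assembly factor, had 15.5, 12.3 and 15.5 CPM in mixed, 6.1, 3.98 and 5.79 CPM in luminal and 52.2, 20.9 and 52 CPM in basal aggregates. Basal 2 stood far below basal 1 and 3 and close to the mixed libraries. The mixed against basal difference of -1.53 ± 0.34, adjusted p = 0.013 shrank to -0.54 with the code series as a term (adjusted p = 0.41). Another gene, Ubxn6, covers 52.5% of the exon bases of Chaf1a. Chaf1b, another subunit, fell in luminal against basal aggregates (-1.77 ± 0.25, adjusted p = 0.00023) and was not called in mixed against basal ones (-0.42 ± 0.24, adjusted p = 0.26).

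Genes that open S phase had the lowest median of the 9 roles in luminal against basal aggregates (-3.34, with 4 of 4 called), and none was called in mixed against basal ones. Ccne1, a cyclin E gene, had 37.6, 43.3 and 40.2 CPM in mixed, 3.02, 2.43 and 2.3 CPM in luminal and 42.4, 59.9 and 48.8 CPM in basal aggregates. Luminal libraries were at 3.02 CPM or less, and mixed 2 just overlapped basal 1, with -4.28 ± 0.23, adjusted p = 3.0e-07 in luminal against basal and -0.32 ± 0.19, adjusted p = 0.3 in mixed against basal aggregates. Ccne2, the other cyclin E gene, had 30.0, 28.7 and 34.5 CPM in mixed, 3.72, 4.21 and 2.99 CPM in luminal and 30.4, 31.1 and 26.2 CPM in basal aggregates. All luminal libraries were low, and mixed and basal ones overlapped, with -3.0 ± 0.23, adjusted p = 2.6e-06 in luminal against basal and 0.09 ± 0.21, adjusted p = 0.81 in mixed against basal aggregates. E2f1, the factor that drives many of the genes above, had 47.4, 39.5 and 59.7 CPM in mixed, 16.4, 23.7 and 16.4 CPM in luminal and 52.4, 38.8 and 58.8 CPM in basal aggregates. Mixed and basal libraries overlapped, and the luminal ones lay at 23.7 CPM or less, a difference of -1.41 ± 0.24, adjusted p = 0.001 in luminal against basal aggregates. Dtl, the adaptor that has Cdt1 degraded once replication starts, fell in luminal against basal aggregates (-3.68 ± 0.33, adjusted p = 8.4e-06).

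**Figure D2:**
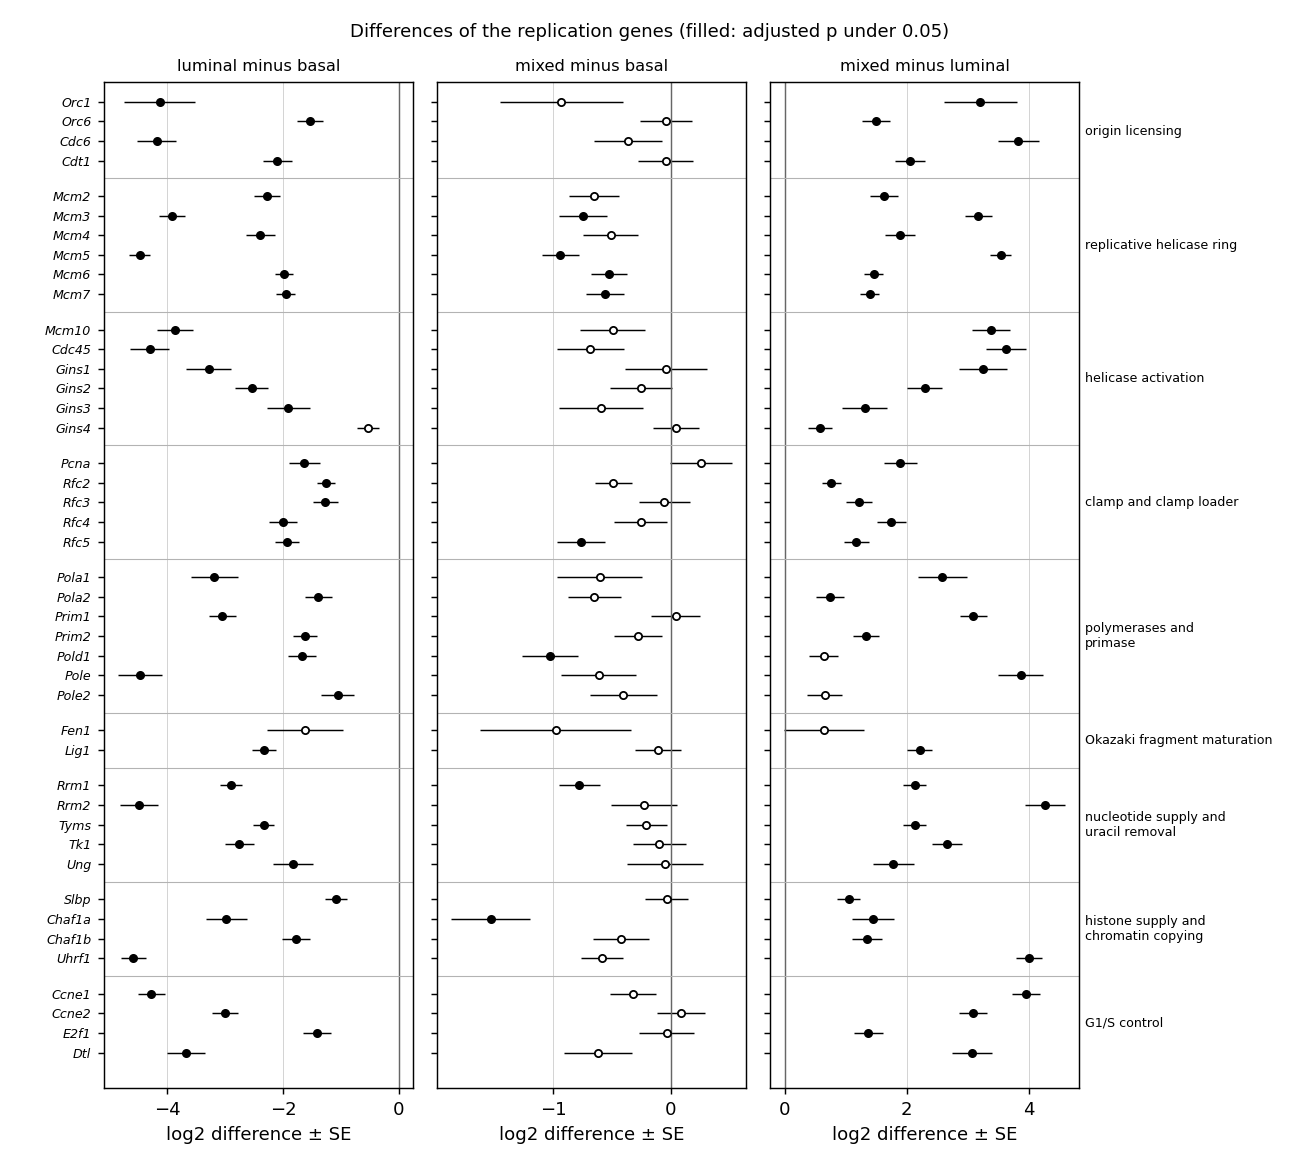
Log2 difference ± SE of each replication gene from the edgeR fit to all 9 libraries, for luminal minus basal (left), mixed minus basal (middle) and mixed minus luminal (right); filled points have an adjusted p under 0.05. Left, 41 of 43 points are filled and all lie below 0; middle, 8 are filled, all below 0; right, 40 are filled, all above 0. The horizontal scale differs between panels.

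Levels per length order the genes within a group. The median RPKM of the 43 genes was 12.9 in mixed, 3.11 in luminal and 17.0 in basal aggregates. After Rrm2 in mixed aggregates came Pcna (51.2 RPKM) and Gins4 (50.1), and after Rrm2 in basal aggregates came Mcm5 (59.6 RPKM) and Gins4 (48.4). In luminal aggregates the order was led by Gins4, then Pcna (13.8 RPKM) and Mcm6 (11.2). Orc1 stood among the lowest 3 in every group, with 1.59, 0.17 and 3.03 RPKM in mixed, luminal and basal aggregates.

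The calls in mixed against basal aggregates rest on few libraries. Basal 2 was above basal 1 and 3 in 25 of the 43 genes, below both in 12 and between them in 6, and its ratio to their mean had a median of 1.12, from 0.402 for Chaf1a to 1.96. With basal 2 left out, 11 of the 43 fell and 1, Pcna, rose, where 12.8% of tested genes fell and 15% rose. Without basal 3, 1 fell (2.14% of tested genes), and without basal 1, 2 fell (2.66%). Leaving out mixed 2 gave 2 lower (4.71% of tested genes) and leaving out mixed 1 gave 5 (5.06%). The single call without basal 3 and the 2 without mixed 2 are shares near those of all tested genes. Of the 39 genes with a negative difference, 10 turned positive without basal 2, none of them called (Cdt1, Gins1, Gins2, Lig1, Orc6, Rfc3, Rrm2, Slbp, Tk1 and Ung). Basal 2 is also the basal library with 49.4 CPM of immune markers, against 4.77 and 4.43 CPM in basal 1 and 3, and the part of such cells in these calls was not tested. With the code series as a term, which compares mixed aggregates with basal 2 only, Mcm5 alone of the 43 was called (-1.07, adjusted p = 0.011), where 1.79% of tested genes fell. That single call is also a share near the one over all tested genes. Mcm5 was called in 9 of 9 fits that left out 1 library and in 10 of 11 other alternatives, all but the test against a 1.5-fold change. For luminal against basal aggregates, the same series term compares luminal 1 alone with basal 1 and 3. It kept 38 of the 41 calls there (6.8% of tested genes fell), losing Gins3, Pole2 and Ung. In mixed against luminal aggregates it kept 19 of 40 (2.05% of tested genes rose), and as no series holds both kinds, that fit reaches the comparison only through basal libraries. Lost were Orc1, Orc6 and Cdt1, Mcm4 and Mcm7, the 4 GINS genes, the 5 genes of the clamp and its loader, Pola1, Pola2 and Prim2, Ung, Slbp, Chaf1b and E2f1.

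Where mixed aggregates stood between the other kinds was put on a scale with the luminal mean CPM at 0% and the basal mean at 100%. Over the 42 genes with at least a 2-fold ratio between luminal and basal means, all but Gins4, the median position was 68.3, 64.4 and 77.5% in mixed 1, 2 and 3 (mean 70.1 ± 6.75%, SD, n = 3). The 3113 tested genes at least 2-fold higher in basal aggregates, replication genes included, had medians of 52.8, 46.0 and 46.3%. In each of the 3 libraries the replication genes thus lay further towards basal than these genes, and no test was made of it. The 5702 tested genes with a 2-fold ratio in either direction had nearer medians, 62.2, 58.7 and 67.2%. On summed CPM the replication genes lay at 68.7%. Of the lists read below, mitosis genes lay at 78.5% and fork regulators at 76.2%, with basal sums 30.7 and 4.90 times the luminal ones. The other lists had a basal to luminal ratio under 2, so their positions rest on small differences. These were histone chaperones (77.4%, ratio 1.55), nucleotide enzymes (112%, 1.66), E2F factors (166%, 1.09), remaining replication subunits (57.1%, 1.60) and CDK inhibitors (14.2%, 1.12). A position near basal was shared by mitosis genes and fork regulators, and so was not particular to the replication genes. Positions differed by gene. They were highest for Pcna (129%), Ccne2 (107%) and Prim1 (104%), and lowest for Chaf1a (25.1%), Pold1 (25.7%) and Fen1 (27.4%). The ring genes lay between 50.0% for Mcm5 and 63.2% for Mcm4. The share of basal cells in the mixed libraries at harvest was not measured, and a position depends on RNA content per cell as well as on cell number.

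**Figure D3:**
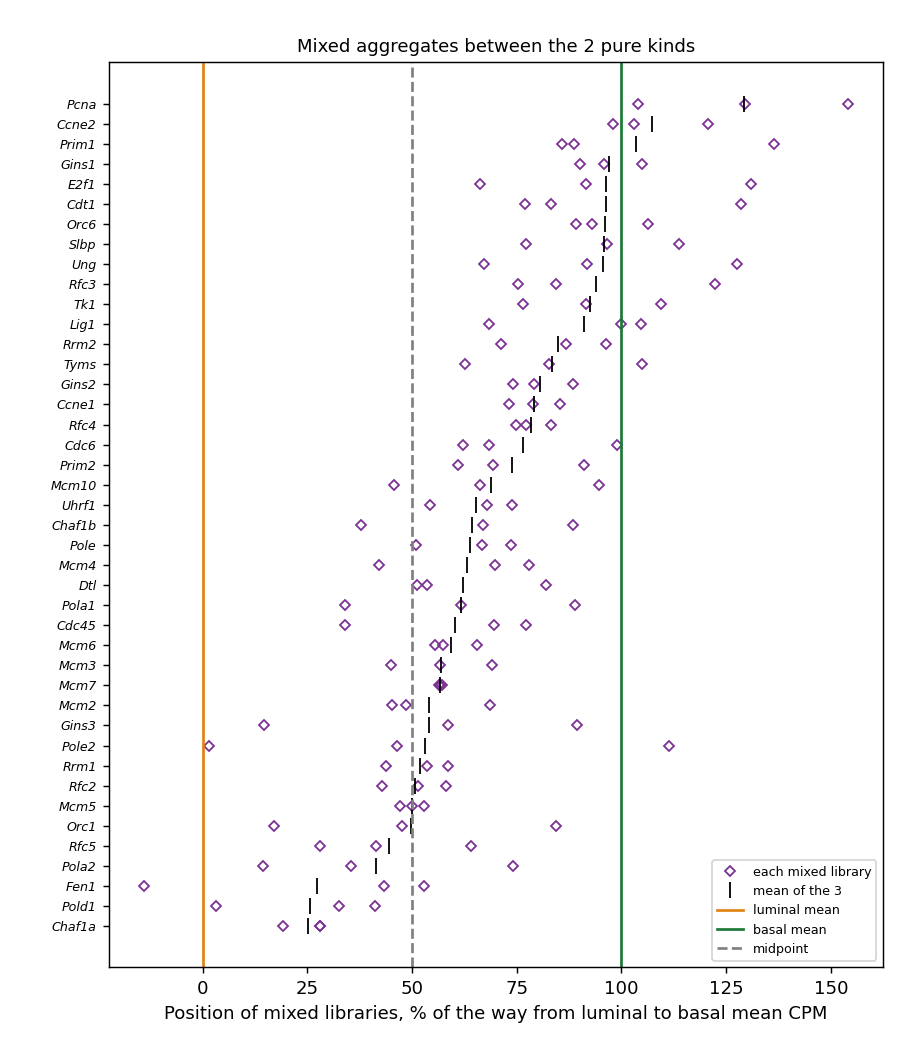
Position of each mixed library (diamonds) and their mean (bar) for 42 replication genes, in percent of the way from the luminal mean (0%) to the basal mean (100%) of TMM-normalised CPM; the dashed line marks 50%. Genes run from Pcna at 129% (top) to Chaf1a at 25.1% (bottom), and the spread between the 3 mixed libraries is wide for many genes.

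Other genes of the pathway, taken as whole lists, were read in the same fit. Of 17 fork regulators and checkpoint genes, 15 fell and none rose in luminal against basal aggregates (median -2.81). Clspn, the checkpoint mediator claspin, fell by 5.97 on the log2 scale, and Ticrr, which helps Cdc45 onto the ring, by 5.53. Cdc7, the kinase that fires origins, fell in luminal against basal aggregates (-3.52 ± 0.44, adjusted p = 0.0001) and in mixed against basal ones (-1.32 ± 0.40, adjusted p = 0.048). It had 9.04, 14.5 and 24.4 CPM in mixed and 57.5, 20.9 and 41.5 CPM in basal aggregates, with basal 2 inside the mixed range. Chtf18 was the other of 2 fork regulators called in mixed against basal aggregates (-1.92 ± 0.37, adjusted p = 0.0073). It had 8.93, 8.24 and 11.1 CPM in mixed and 44.0, 15.4 and 47.8 CPM in basal aggregates. Of 19 measured subunits of the replication machinery outside the 43, 8 fell, 1 rose and 10 were not called in luminal against basal aggregates (median -0.54). Rpa1 and Rpa2, which coat single-stranded DNA, fell by 1.62 and 2.33, and Dna2, a nuclease of Okazaki fragments, fell by 3.68. Pold4, a small polymerase delta subunit, rose by 1.05. In mixed against basal aggregates 3 of these 19 fell, Rpa1, Pold2 and Ssrp1, and none rose.

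Of 12 enzymes of nucleotide supply, 9 fell and 3 rose in luminal against basal aggregates (median -1.35). Dut, which removes dUTP, fell by 3.10 and Dck, the deoxycytidine kinase, by 2.56. The 3 that rose were Samhd1, which breaks down deoxynucleotides (181, 184 and 193 CPM in mixed, 265, 189 and 165 CPM in luminal and 50.4, 52.4 and 56.1 CPM in basal aggregates), Rrm2b, the reductase subunit used outside S phase (11.5, 12.1 and 15 CPM in mixed, 16.7, 13.1 and 21 CPM in luminal and 7.41, 8.38 and 6.84 CPM in basal aggregates), and Tk2, the mitochondrial thymidine kinase (18.8, 23.1 and 19.3 CPM in mixed, 52.8, 41.8 and 46.4 CPM in luminal and 29.4, 17.8 and 24 CPM in basal aggregates). Luminal libraries of all 3 lay above every basal one, and the log2 differences were 1.96, 1.17 and 0.99. Of 10 histone chaperones and maintenance methylation genes, 5 fell and 5 were not called (median -0.79). Hells, a chromatin remodeller, and Asf1b, a histone chaperone, fell by 3.69 and 3.55, while Dnmt1, the methyltransferase that Uhrf1 recruits, fell by 0.62 (adjusted p = 0.046).

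E2F factors and their partners went both ways. Of 12, 8 fell, 1 rose and 3 were not called in luminal against basal aggregates (median -0.89). E2f7 and E2f8, repressors that are themselves expressed in S phase, fell in the same comparison (log2 differences -6.02 and -6.34), with E2f8 at 0 counts in luminal 2 and 3. Rb1, which encodes the retinoblastoma protein, had 104, 112 and 143 CPM in mixed, 233, 186 and 276 CPM in luminal and 28.2, 23.4 and 25.6 CPM in basal aggregates. Every luminal library lay far above every basal one, and mixed libraries stood between them. Rb1 rose in luminal against basal (3.17 ± 0.21, adjusted p = 8.6e-07) and in mixed against basal aggregates (2.22 ± 0.20, adjusted p = 6.3e-05). Its relative Rbl1 fell in luminal against basal aggregates (-1.92), and Rbl2 was not called (0.50). Among 6 tested CDK inhibitors 4 fell (Cdkn1c, Cdkn2b, Cdkn2c and Cdkn2d), 1 rose (Cdkn1b, 0.67) and Cdkn1a was not called (0.19).

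All 12 genes of a mitosis list, among them Mki67, Top2a and Cdk1, fell in luminal against basal aggregates, with a median of -5.04 beside -2.32 for the replication genes. They summed to 1376, 1321 and 1565 CPM in mixed, 59.6, 54.5 and 60.9 CPM in luminal and 1561, 2215 and 1605 CPM in basal aggregates. Basal over luminal was 30.7-fold in this sum and 4.94-fold in the replication sum, and no test of that difference was made. Within the 35 replication genes that have a promoter sequence, the 13 with an E2F consensus had a median log2 difference of -2.10 in luminal against basal aggregates, and the 22 without had -2.30. The printed promoters of Mcm3, Mcm5 and Mcm6 belong to genes at -3.92, -4.48 and -1.98. Mcm6 held the most matches and fell least of the 3.

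**Figure D4:**
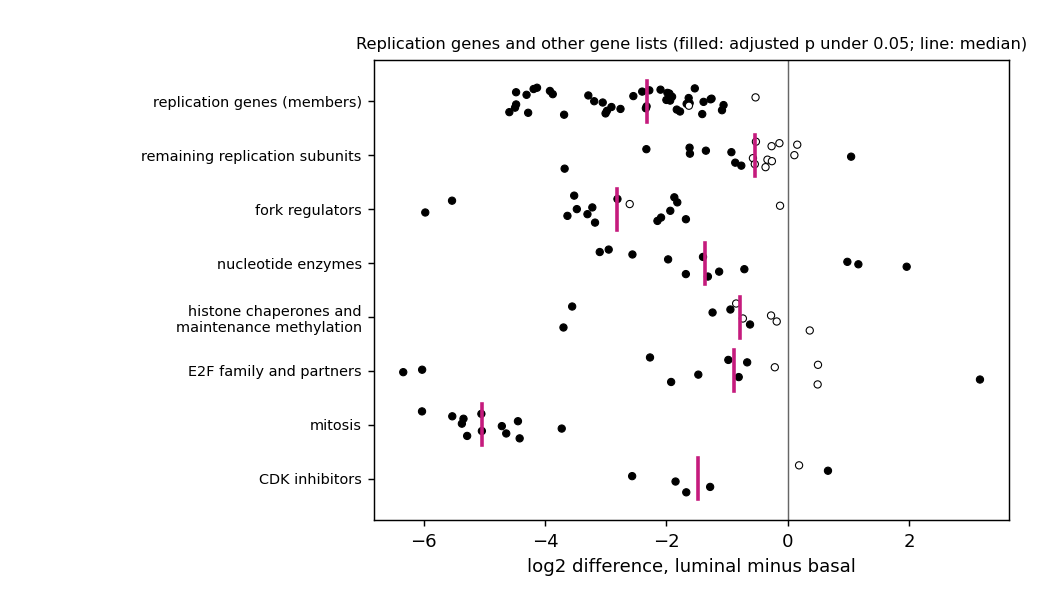
Log2 difference, luminal minus basal, of each tested gene in 8 lists, with filled points at an adjusted p under 0.05 and a bar at each list's median. The replication genes have a median of -2.32, the mitosis genes -5.04 with 12 of 12 filled, and the 3 nucleotide enzymes right of 0 are Samhd1, Rrm2b and Tk2.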

How the data were processed

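Per the file headers, the authors deposited 1 table of raw counts per gene name from featureCounts 2.0.1, run on read pairs over exons, without strand. The submitters' processing notes name Trim Galore, Subread and build mm39. The annotation release is not given in the sources used here. Libraries were mapped to table columns by their description labels and numbered by title.

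The 43 genes and all lists were chosen with earlier results of these data known. Counts were fitted in R 4.3.3 with edgeR 4.0.16: filterByExpr, TMM scaling, all 9 libraries with 3 groups (6 residual degrees of freedom), the robust quasi-likelihood test, two-sided, and Benjamini-Hochberg adjustment over 18051 genes with a threshold of 0.05. The fit was tested on simulated data with changes in luminal libraries only and no series effect, which do not address the code series or basal 2. CPM has no pseudocount, and RPKM divides it by the exon length in the table. Standard errors follow from the F values. Alternatives were DESeq2 1.42.0, limma-voom (limma 3.58.1), other scalings and filters, a 1.5-fold test, 2-group fits, a term for the code series in column names, the title number as a block, and libraries left out. Genes given library by library were those of each role with the highest RPKM and the largest and smallest luminal against basal difference, and those called or positive in mixed against basal aggregates. Of each other list, up to 3 genes were taken by the largest luminal against basal difference, and 1 of these is not reported here. Orc1 and some further genes outside the 43 were named after their values were seen. E2F strings were searched in RefSeq promoters (GRCm38.p6). Each gene's first listed start was used.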

Additional observations from a re-analysis of the deposited data

How the results depend on the processing

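Counts of genes called moved by over 1.5 times under some alternatives. In luminal against basal aggregates, the code series term gave 1280 genes higher and 1227 lower and the test against a 1.5-fold change 1257 and 1628, against 2304 and 2595. In mixed against basal aggregates (1153 higher and 1324 lower), the series term gave 529 and 324, the 1.5-fold test 510 and 388, DESeq2 2340 lower, no filter on low counts 2190 lower, and leaving out both basal 2 and mixed 3, chosen after seeing the data, 2570 and 2464. Leaving out 1 library gave 590 to 2709 higher and 387 to 2317 lower. In mixed against luminal aggregates (2749 higher and 2560 lower), the series term gave 370 and 121, the 1.5-fold test 1279 and 964, and leaving out 1 library 1594 to 3446 higher and 1428 to 3244 lower.

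Of the replication genes, 38 to 43 fell in luminal against basal aggregates under every alternative run, and none changed sign there or in mixed against luminal aggregates. The 38 came with the series term, where luminal 1 is the only luminal library compared with basal ones. In mixed against luminal aggregates 36 to 41 rose except under the series term, which left 19. In mixed against basal aggregates the series term left 1 lower and the 1.5-fold test 0, and leaving out 1 library gave 1 to 11 lower and 0 to 1 higher. There 15 genes changed sign under some alternative, none of them called with all libraries or where the sign turned: Gins4 (-0.19), Pcna (-0.31), Prim1 (-0.16) and E2f1 (0.33) with the series term, Ccne2 (-0.064), Gins4 (-0.092) and Prim1 (-0.10) by library size, Gins1 (0.040) and Orc6 (0.015) with limma-voom, and Orc6 (9.1e-05) with the replicate block. Leaving out libraries gave -0.24 to 0.21 for Cdt1, -0.36 to 0.11 for E2f1, -0.21 to 0.35 for Gins1, -0.47 to 0.10 for Gins2, -0.053 to 0.19 for Gins4, -0.20 to 0.026 for Lig1, -0.17 to 0.28 for Orc6, -0.17 to 0.16 for Prim1, -0.18 to 0.18 for Rfc3, -0.34 to 0.057 for Rrm2, -0.13 to 0.19 for Slbp, -0.24 to 0.12 for Tk1 and -0.23 to 0.097 for Ung. Library size scaling also moved the median position of mixed libraries to 61.5% and the median of all genes in mixed against basal aggregates to -0.22. The TMM factors were 1.15 and 1.12 in basal 1 and 3, 0.951 in basal 2 and 0.936 to 0.993 in mixed and luminal libraries. The causes were not tested.

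With each group's mean taken off, same-numbered libraries of different groups correlated at -0.17 to 0.20 over genes. Pairs with different numbers were not set beside them, so whether a shared title number marks a shared origin was not settled. With the title number as replicate block, 41 replication genes fell in luminal against basal, 8 fell in mixed against basal (Mcm6 and Mcm7 ended) and 39 rose in mixed against luminal aggregates. Low counts limit the precision for Fen1, at 0.762 to 4.31 CPM, and for Orc1, at 0.297 to 12.1 CPM.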
